A study of Mus musculus with 24 samples.

Results

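The genes described here are 9 receptors and adhesion molecules that direct where a T cell goes: the chemokine receptors Ccr7, Cxcr4 and Cxcr3, the sphingosine 1-phosphate (S1P) receptors S1pr1 and S1pr4, the integrin chain Itgb7, the hyaluronan receptor Cd44, the lymphocyte retention molecule Cd69, and the G protein-coupled receptor Gpr18. They are 9 of the 55414 genes in the count table, of which 25030 had a count, and all 9 passed the filter on low counts. They were chosen on earlier results of these same libraries, so their levels and differences between groups are a description of these data. Counts of members past the test's thresholds are given in that sense only, beside the share of all genes, and nothing rests on them.

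RNA was measured in Tconv CD4+ cells (CD4+ CD25-, named TE in the labels), isolated on magnetic columns from the spleens of conplastic mice. Every mouse had the C57BL/6J nuclear genome. The mtDNA came from C57BL/6J (genotype WT in the labels, mtDNA B6 here) or from NZB (genotype NZB, mtDNA NZB here). Cells were taken at rest (RES) or after activation (ACT) for 72 h with IL-2 and beads that carry antibodies to CD3 and CD28, at 1 bead per cell. Per the study's methods, most of its experiments used males of 2 to 3 months of age. The methods do not give sex and age separately for these libraries. Each of the 4 groups held 6 libraries, 24 in all. Activated cells had spent that time in culture with IL-2, so the beads, IL-2 and culture cannot be told apart. The labels do not say which libraries came from separate mice, and the errors given here measure the spread between libraries, which may be partly technical. Some numbers in the sample descriptions recur in both states of a haplotype. Whether they mark a mouse is not stated, and the main comparisons do not pair these libraries.

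A naive T cell enters a lymph node when Ccr7 and the integrin LFA-1 act in turn on the vessel wall, and it leaves again by following S1P through S1pr1. Cd69 binds the S1pr1 protein and removes it from the surface, which holds a newly stimulated cell in place. The transcription factor Klf2 drives the gene for S1pr1, and it is shut down early after stimulation through the T cell receptor. Cxcr4 responds to Cxcl12 from stromal cells, Cxcr3 to the interferon-induced chemokines of inflamed tissue, and Itgb7 pairs with Itga4 to bind the gut vessel addressin Madcam1.

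The libraries held from 51409 to 6449395 UMI counts (unique molecular identifiers, each counting 1 captured RNA molecule). The smallest was resting mtDNA NZB replicate 2, where the members had 4 to 38 counts each, and every other library had at least 641467. Il2ra, a gene of activated T cells that served as a check of the labels, had a median of 3.17 CPM (UMI counts scaled to a common library size) at rest and 76.3 CPM after activation in mtDNA B6, and 3.00 and 101.7 CPM in mtDNA NZB. It is 1 of 9 markers of T cell activation. By the rule for calls given below, 5 of the 9 rose in mtDNA B6 and 4 in mtDNA NZB, and none fell. Of all tested genes 17.7% and 23.4% were called. By adjusted p alone, over 24 libraries, Myc was lower in mtDNA B6 (log2 change -0.785, SE 0.228). Tfrc, Irf4 and Pdcd1 passed in neither haplotype. Markers of T cell identity (11 genes, Cd3e, Cd4 and Trac among them) summed to between 5750 and 11260 CPM in all libraries, and the lowest sum belonged to resting mtDNA NZB replicate 6. That library also had 6762 CPM of neutrophil markers, against 156.7 to 1270 CPM in the other resting mtDNA NZB libraries.

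RNA of other cells was present and differed between the states. Markers of myeloid cells summed to 838 to 2682 CPM in resting and 24.2 to 86.2 CPM in activated mtDNA B6 libraries, and to 468.5 to 2883 and 11.5 to 110.7 CPM in those of mtDNA NZB. All 7 tested myeloid markers, all 6 tested neutrophil markers and all 6 erythroid markers fell in both haplotypes by the rule for calls given below. Without the 3 mtDNA NZB libraries described below (21 libraries), 4 of the 6 neutrophil and 4 of the 6 erythroid markers were still called in mtDNA NZB, and the median log2 changes of these lists were -3.36 and -3.72 in place of -5.91 and -6.15. Neutrophil sums went from 276.7 to 1891 CPM at rest to 4.89 to 38.4 CPM when activated in mtDNA B6, and erythroid sums from 191.8 to 7185 CPM to 4.89 to 162.9 CPM. Retnlg, a neutrophil gene, had a median of 0 in both activated groups. The 8 B cell markers summed to 8580 to 13220 CPM at rest and 2384 to 6167 CPM after activation in mtDNA B6, and to 5736 to 17450 and 1108 to 5991 CPM in mtDNA NZB. Over 24 libraries Ighm was the 1 B cell marker that fell, from a median of 10430 to 3164 CPM in mtDNA B6, and Cd79b and Ms4a1 did not pass the test in either haplotype. Over 21 libraries 3 of the 8 B cell markers were called lower in mtDNA NZB (Ighm, Ighd and Ebf1, with a list median of log2 -1.01 in place of -0.51), and in mtDNA B6 Ms4a1 was called higher and Ighm lower. Both CD8 markers rose in both haplotypes (sums of 52.3 to 111.2 CPM at rest and 161.3 to 405.3 CPM after activation in mtDNA B6), and over 21 libraries 1 of the 2 was called in mtDNA NZB (list median log2 1.04 in place of 1.67). Among 4 tested NK cell markers 2 rose and 1 fell in mtDNA B6, and 1 rose and 1 fell in mtDNA NZB. Of 4 Treg markers Il2ra alone rose, in both haplotypes, and 2 of 3 tested platelet markers rose in each, or 1 of 3 in mtDNA NZB over 21 libraries. B cells and myeloid cells also carry several of the 9 receptors, so in these bulk samples fewer cells of a type and less RNA per cell cannot be told apart. The part of other cells in the differences below was not tested.

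**Figure D1:**
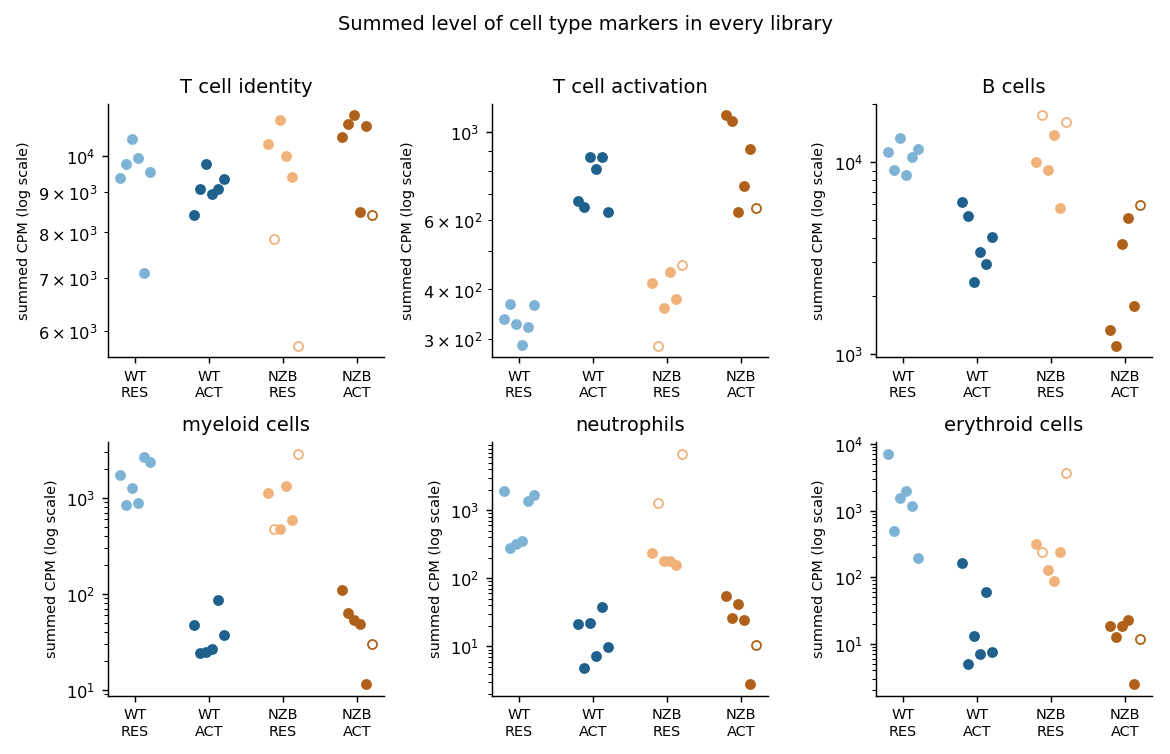
Summed CPM (log scale) of 6 lists of marker genes in every library (circle), by haplotype and state. Open circles are the 3 libraries that were left out in the second computation (mtDNA NZB, resting replicates 2 and 6, activated replicate 6). Myeloid, neutrophil and erythroid sums were lower in activated than in resting libraries, and T cell identity lay between 5750 and 11260 CPM throughout.

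Libraries were compared with edgeR's quasi-likelihood test on the UMI counts. A gene is called when its adjusted p is at most 0.05 and its log2 change is at least 1 in size. The interaction, which asks whether activation acted differently in the haplotypes, needs the adjusted p alone. Levels are TMM-scaled CPM, given as lowest, median and highest of 6 libraries, and errors of log2 changes are standard errors (SE). Values that rest on 3 mtDNA NZB libraries (resting replicates 2 and 6, activated replicate 6) are also given for the other 21 libraries. These 3 were not among those behind the study's own group means. Group means of the 21 differed from the study's by at most 0.475%, those of all 24 by up to 91.5%. Resting replicate 2 also stood apart by depth, and resting replicate 6 by its marker sums. Resting replicate 5 was kept, although its chi-square against replicates 1, 3 and 4 was 26.6 to 31.0 times its degrees of freedom. Among those 3 it was 5.63 to 8.47 times.

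**Figure D2:**
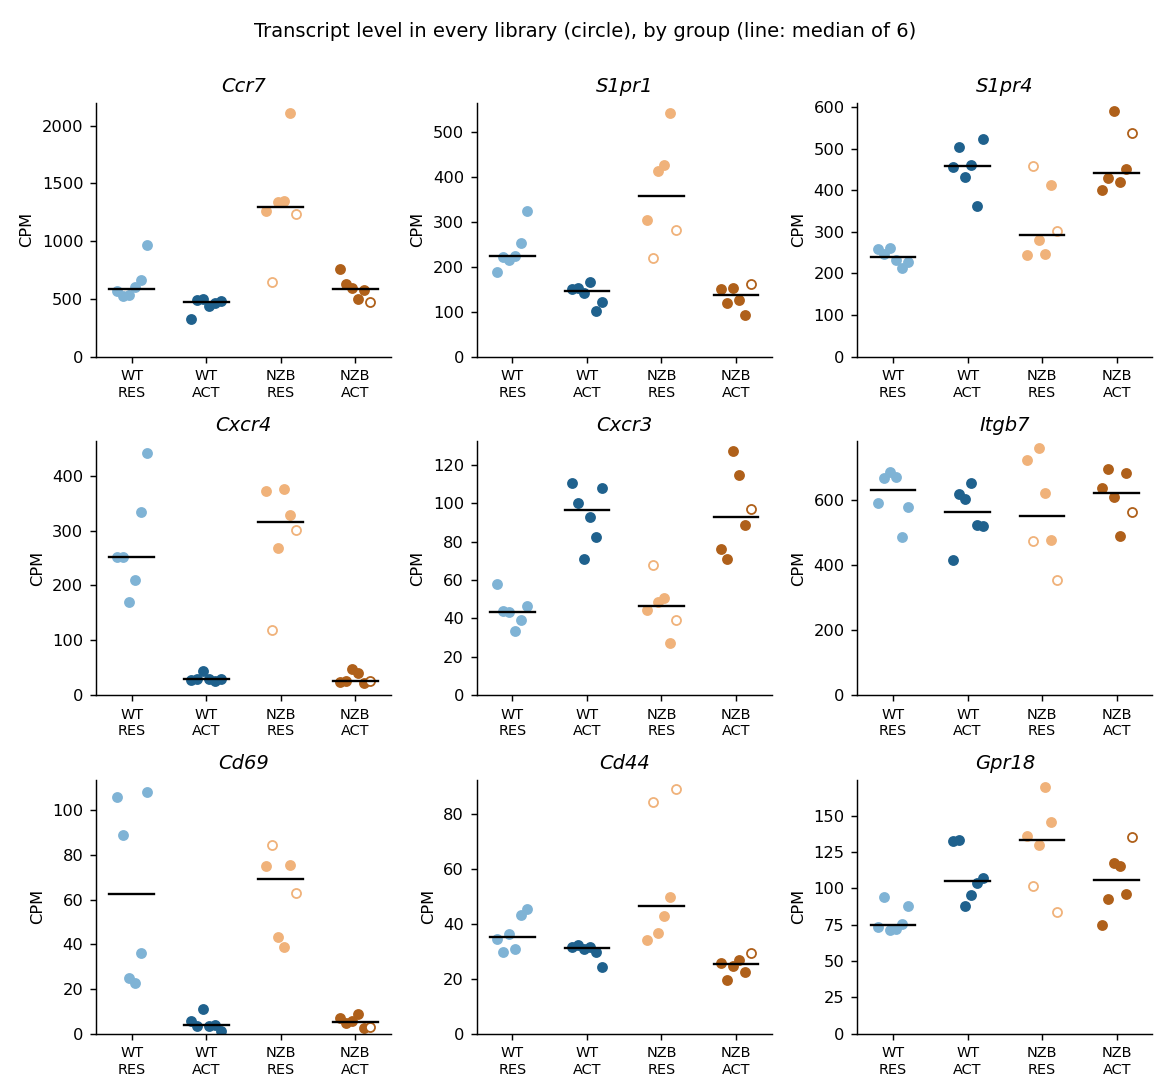
CPM of the 9 genes in every library (circle), on linear axes that start at 0, by haplotype and state, with the median of 6 as a line. Open circles are the 3 libraries left out in the second computation. Cxcr4 and Cd69 were low in every activated library, Cxcr3 was high in them, and Ccr7, S1pr1 and Gpr18 stood highest in resting mtDNA NZB cells.

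Cxcr4 and Cd69 showed the largest differences with activation among the 9 genes, and both were lower in every activated library than in any resting library. Cxcr4 (chr1:128515936-128520044 of GRCm39, minus strand, as for all 9 genes) is the Cxcl12 receptor that holds lymphocytes in marrow and lymphoid tissue. It was measured at 170.4, 251.8 and 441.6 CPM in resting and 25.3, 29.6 and 44.6 CPM in activated mtDNA B6 cells, and at 118.6, 315.1 and 375.8 and 21.4, 25.2 and 48.4 CPM in mtDNA NZB cells. The groups did not overlap in either haplotype. The log2 change was -3.16 ± 0.24 (8.91-fold lower) in mtDNA B6 and -3.33 ± 0.25 (10.04-fold lower) in mtDNA NZB. Cd69 (chr6:129244288-129252399) is itself known as an early marker of stimulation. Its levels were 22.7, 62.7 and 108.3 CPM at rest and 1.19, 3.88 and 10.9 CPM after activation in mtDNA B6, and 38.6, 69.1 and 84.7 and 2.48, 5.39 and 8.71 CPM in mtDNA NZB. Every resting library was again above every activated one, although Cd69 had the largest spread of the members relative to its mean in resting mtDNA B6 cells, with an SD of 40.9 around a mean of 64.6 CPM. The log2 change was -3.72 ± 0.42 in mtDNA B6 (13.2-fold lower) and -3.62 ± 0.45 in mtDNA NZB (12.3-fold lower). The activated libraries held 3 to 33 Cd69 counts each, so small differences among them were not detectable at this depth.

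Cxcr3 and S1pr4 were the members with higher levels after activation in both haplotypes. Cxcr3 (chrX:100775141-100777875) guides effector cells towards Cxcl9, Cxcl10 and Cxcl11. It was measured at 33.3, 43.6 and 57.9 CPM at rest and 71.0, 96.5 and 110.5 CPM after activation in mtDNA B6. In mtDNA NZB the levels were 27.04, 46.4 and 67.8 CPM at rest and 71.1, 92.9 and 127.3 CPM after activation. No resting library reached the lowest activated one in either haplotype. The log2 change was 1.09 ± 0.16 in mtDNA B6 and 1.17 ± 0.17 in mtDNA NZB, and the 2 responses differed by 0.08 (95% interval -0.38 to 0.54). S1pr4 (chr10:81333581-81335966), an S1P receptor of lymphocytes that is not the egress receptor, stood at 212.2, 239.2 and 260.1 CPM at rest and at 362.6, 458.1 and 524.2 CPM after activation in mtDNA B6, without overlap. In mtDNA NZB it went from 244.0, 291.6 and 457.3 CPM to 401.2, 440.7 and 591.2 CPM, and the groups overlapped. Its log2 change was 0.93 ± 0.13 in mtDNA B6 and 0.60 ± 0.14 in mtDNA NZB, under the fold cut-off in both.

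S1pr1 (chr3:115504071-115508721), the egress receptor, went the other way from S1pr4. It was measured at 187.8, 223.5 and 325.7 CPM in resting and 101.6, 147.2 and 167.0 CPM in activated mtDNA B6 cells. At rest mtDNA NZB cells had 220.2, 358.6 and 543.5 CPM, and activated ones 92.9, 138.4 and 161.4 CPM. All resting libraries lay above all activated ones in both haplotypes. The log2 change was -0.77 ± 0.17 (1.70-fold lower) in mtDNA B6, under the fold cut-off, and -1.50 ± 0.18 (2.83-fold lower) in mtDNA NZB.

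Ccr7 (chr11:99035022-99045911) is the receptor for Ccl19 and Ccl21 that brings T cells into lymph nodes and into the T cell zone of the spleen. Its levels were 525.9, 584.3 and 966.3 CPM in resting and 325.1, 472.7 and 497.7 CPM in activated mtDNA B6 cells, and these groups did not overlap. In mtDNA NZB cells they were 643.6, 1300 and 2109 CPM at rest and 471.7, 587.2 and 763.5 CPM after activation. The overlap in mtDNA NZB came from replicate 2, with 38 counts, since the other 5 resting libraries were at 1233 CPM or more. The log2 change was -0.51 ± 0.19 in mtDNA B6, under the fold cut-off, and -1.19 ± 0.19 (2.29-fold lower) in mtDNA NZB. Without resting mtDNA B6 replicate 6, the library at 966.3 CPM, the change in mtDNA B6 was -0.32 and no longer passed by adjusted p, nor did it without activated mtDNA B6 replicate 1 or with the library set described below as a term (-0.41 ± 0.23).

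Of the adhesion molecules, Itgb7 was not called in either haplotype and Cd44 was called in mtDNA NZB over 24 libraries. Itgb7 (chr15:102124429-102140379) was measured at 487.3, 631.2 and 687.2 CPM at rest and 416.0, 564.8 and 652.3 CPM after activation in mtDNA B6, and at 355.3, 550.9 and 761.6 and 490.6, 624.1 and 696.1 CPM in mtDNA NZB. Both pairs of groups overlapped, and the log2 changes of -0.14 ± 0.15 and 0.09 ± 0.15 were no larger than their SE, with 95% intervals of -0.44 to 0.15 and -0.21 to 0.39. Cd44 (chr2:102641486-102732010), a marker of antigen-experienced T cells when its protein is high, had 29.8, 35.4 and 45.5 CPM at rest and 24.2, 31.3 and 32.4 CPM after activation in mtDNA B6, a log2 change of -0.29 ± 0.18 with overlapping groups. In mtDNA NZB its levels were 34.4, 46.5 and 89.1 CPM at rest and 19.6, 25.4 and 29.6 CPM after activation, a log2 change of -1.04 ± 0.19. The highest resting values, 84.7 CPM from 5 counts and 89.1 CPM, belonged to replicates 2 and 6. Over 21 libraries the log2 change was -0.78 ± 0.15 and Cd44 was no longer called.

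Gpr18 (chr14:122148665-122153304), a receptor of lymphocytes known for its part in placing T cells in the gut lining, had its highest level at rest in one haplotype and after activation in the other. It was measured at 71.5, 74.5 and 94.0 CPM in resting and 87.9, 105.2 and 133.4 CPM in activated mtDNA B6 cells, and at 83.5, 132.9 and 169.6 and 74.8, 105.7 and 135.2 CPM in mtDNA NZB cells. The groups overlapped in both haplotypes. The log2 change was 0.47 ± 0.15 in mtDNA B6 and -0.30 ± 0.15 in mtDNA NZB, where it did not pass by adjusted p over 24 libraries. The interaction of Gpr18, given below, was not called over 24 libraries. With the library set as a term the change in mtDNA B6 was 0.38 ± 0.20 and no longer passed by adjusted p, and over 21 libraries that in mtDNA NZB was -0.53 ± 0.14. The last 1000 bases of Gpr18 lie within Ubac2, which is on the other strand. The sources used here do not state strand in the counting. Ubac2 itself had log2 changes of 0.02 ± 0.11 and -0.10 ± 0.11 with activation.

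**Figure D3:**
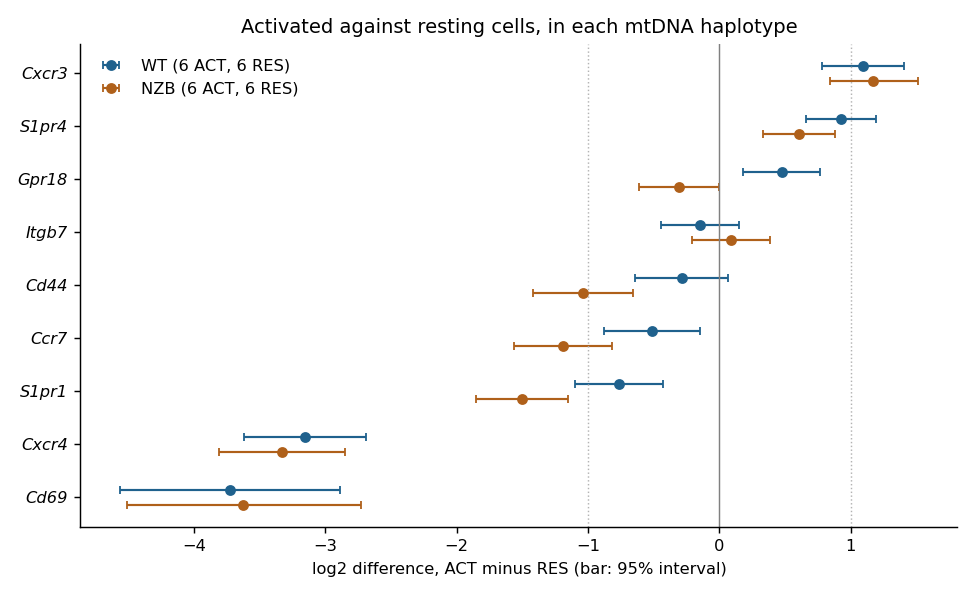
Log2 difference between activated and resting cells for the 9 genes, with 95% intervals, in mtDNA B6 (blue) and mtDNA NZB (brown); dotted lines mark a log2 change of 1 in size. Cxcr4 and Cd69 lie below -3 in both haplotypes, and the Ccr7, S1pr1, Cd44 and Gpr18 points lie further left in mtDNA NZB than in mtDNA B6.

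In all, 1 member was called higher and 2 lower with activation in mtDNA B6, where 17.7% of the 10566 tested genes were called, and 1 higher and 5 lower in mtDNA NZB, where 23.4% were called. By adjusted p alone 3 members were higher and 4 lower in mtDNA B6 (46.9% of all genes passed) and 2 higher and 5 lower in mtDNA NZB (53.5% passed). Resting and activated libraries did not overlap for 6 members in mtDNA B6 and for 5 in mtDNA NZB, beside 31.8% and 18.9% of all tested genes. The median log2 change over the 9 members was -0.29 in mtDNA B6 and -1.04 in mtDNA NZB, and over all tested genes it was -0.03 and -0.06. Since the members were chosen on these comparisons, the counts describe them and support nothing further. The libraries also fell into 3 sets by reads per UMI, and the activated mtDNA B6 libraries had 5 of 6 in a set with no resting mtDNA B6 library. With the set as a term the log2 changes of Cxcr4 were -2.92 ± 0.29 and -3.21 ± 0.23, those of Cd69 were -3.25 ± 0.57 and -3.50 ± 0.46, and those of Cxcr3 were 1.02 ± 0.22 and 1.17 ± 0.18.

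At rest 3 members, Ccr7, Gpr18 and S1pr1, passed by adjusted p over 24 libraries, all higher in mtDNA NZB. None of them passed with the library set as a term or with only the resting groups fitted. Ccr7 had a median of 584.3 CPM in resting mtDNA B6 and 1300 CPM in resting mtDNA NZB cells, a log2 difference of 1.06 ± 0.19 (2.09-fold higher in mtDNA NZB). Its 6 resting mtDNA B6 libraries were at 568.0, 525.9, 531.0, 600.6, 664.2 and 966.3 CPM, and the resting mtDNA NZB libraries at 1259, 643.6, 1342, 1346, 2109 and 1233 CPM (replicates 1 to 6). Without replicate 2, all mtDNA NZB values were above all mtDNA B6 values. Gpr18 was at 73.3, 94.0, 71.5, 72.04, 75.7 and 88.0 CPM in the resting mtDNA B6 libraries and at 136.2, 101.6, 129.6, 169.6, 145.7 and 83.5 CPM in those of mtDNA NZB. Its log2 difference was 0.73 ± 0.15 (1.66-fold), and the lowest 2 mtDNA NZB values were those of replicates 6 and 2. S1pr1 was at 187.8, 223.1, 214.6, 224.0, 253.5 and 325.7 CPM in mtDNA B6 and at 304.1, 220.2, 413.1, 426.5, 543.5 and 282.7 CPM in mtDNA NZB. The groups overlapped, and the log2 difference was 0.67 ± 0.17 (1.59-fold).

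Of the 9 members 1 (Ccr7) was called at rest, higher in mtDNA NZB, where 1.01% of all genes were called. By adjusted p alone Ccr7, S1pr1 and Gpr18 passed, all higher in mtDNA NZB, beside 2.76% of all genes. S1pr1 did not pass with no filter on low counts, with the second count table, with a block by the number in the title, with the library set as a term or with only the resting groups fitted, and Gpr18 not in the last 2 of these. S1pr1 also did not pass without any 1 of resting mtDNA B6 replicates 1 to 5, activated mtDNA B6 replicates 2 and 3 or resting mtDNA NZB replicates 4 and 5, nor Gpr18 without any 1 of resting mtDNA B6 replicates 1, 3, 4 and 5 or resting mtDNA NZB replicate 5. No member had groups without overlap, as 1.14% of all genes did. Over 21 libraries, with 4 resting mtDNA NZB libraries left, the log2 differences were 1.24 ± 0.17 for Ccr7, 0.88 ± 0.14 for Gpr18 and 0.83 ± 0.17 for S1pr1. Replicates 2 and 6, left out there, held the lowest 2 resting mtDNA NZB values of each of these genes. Replicate 5, which was kept, held the highest of Ccr7 and of S1pr1. Ccr7 was again the 1 member called (2.98% of all genes), and Ccr7 and Gpr18 had groups without overlap (5.39% of all genes). The Ccr7 call did not hold without resting mtDNA B6 replicate 1, 3 or 4 or without resting mtDNA NZB replicate 5, where the log2 difference was 1.03, 0.99, 1.04 and 0.89. It also did not hold with the library set as a term (0.98 ± 0.19) or with only the resting groups fitted (1.06 ± 0.23).

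Within the set of libraries that held 4 resting mtDNA B6 libraries and 1 of mtDNA NZB, Ccr7 was at 525.9 to 600.6 CPM against 1259 CPM, Gpr18 at 71.5 to 94.0 against 136.2 CPM, and S1pr1 at 187.8 to 224.0 against 304.1 CPM. In the set with 2 and 4 such libraries the values were 664.2 to 966.3 against 643.6 to 2109 CPM for Ccr7, 75.7 to 88.0 against 83.5 to 169.6 CPM for Gpr18, and 253.5 to 325.7 against 220.2 to 543.5 CPM for S1pr1. The last set held 1 resting mtDNA NZB library and none of mtDNA B6. Markers of other cells also differed between the haplotypes at rest. Over 21 libraries all 6 erythroid markers and 3 of 6 tested neutrophil markers were called lower in mtDNA NZB (Hbb-bs log2 -3.46 ± 0.98, S100a8 -2.72 ± 0.71), Mki67 of proliferating cells was called lower (-1.30 ± 0.34), no B cell, myeloid or T cell identity marker was called, and over 24 libraries no marker of these lists was called. Their part in the Ccr7, Gpr18 and S1pr1 differences was not tested.

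The other members showed smaller differences at rest. S1pr4 was 0.37 ± 0.14 higher in mtDNA NZB on the log2 scale and Cd44 0.48 ± 0.19 higher, or 0.15 ± 0.14 over 21 libraries. Cxcr4, Cxcr3, Itgb7 and Cd69 differed by 0.17, -0.05, -0.09 and -0.11, with 95% intervals of -0.25 to 0.60, -0.38 to 0.29, -0.40 to 0.21 and -0.82 to 0.60. The resting mtDNA B6 libraries of Cd69, whose interval is the widest, ranged from 22.7 to 108.3 CPM.

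After activation no member was called between the haplotypes by edgeR's quasi-likelihood test or by DESeq2, as was the case for all tested genes (0% called, 327 genes at an unadjusted p under 0.05). Ccr7 was the 1 member at an unadjusted p under 0.05, with a log2 difference of 0.39 ± 0.19 (NZB higher), and the remaining 8 lay between -0.28 (Cd44) and 0.14 (Itgb7). S1pr1 had medians of 147.2 and 138.4 CPM and Gpr18 of 105.2 and 105.7 CPM in activated mtDNA B6 and mtDNA NZB cells.

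For the response to activation, the members with the largest interaction were Gpr18 (-0.78 ± 0.22), Cd44 (-0.75 ± 0.27), S1pr1 (-0.73 ± 0.25) and Ccr7 (-0.68 ± 0.26), each lower in mtDNA NZB relative to mtDNA B6. These 4 were at an unadjusted p under 0.05, and none was called (0% of 10566 genes, 1512 at an unadjusted p under 0.05). DESeq2 called 1 of all genes and none of the members. Over 21 libraries Gpr18 (-1.01 ± 0.19) and S1pr1 (-0.96 ± 0.24) were called, beside 1.04% of all genes, and Ccr7 (-0.79 ± 0.24) and Cd44 (-0.50 ± 0.20) were not. With the library set added as a term over the same 21 libraries, Gpr18 was at -1.05 ± 0.23 and S1pr1 at -0.89 ± 0.22, and neither was called. The interactions of S1pr4, Cxcr4, Cxcr3, Itgb7 and Cd69 had 95% intervals that included 0, the widest from -1.14 to 1.35 for Cd69.

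**Figure D4:**
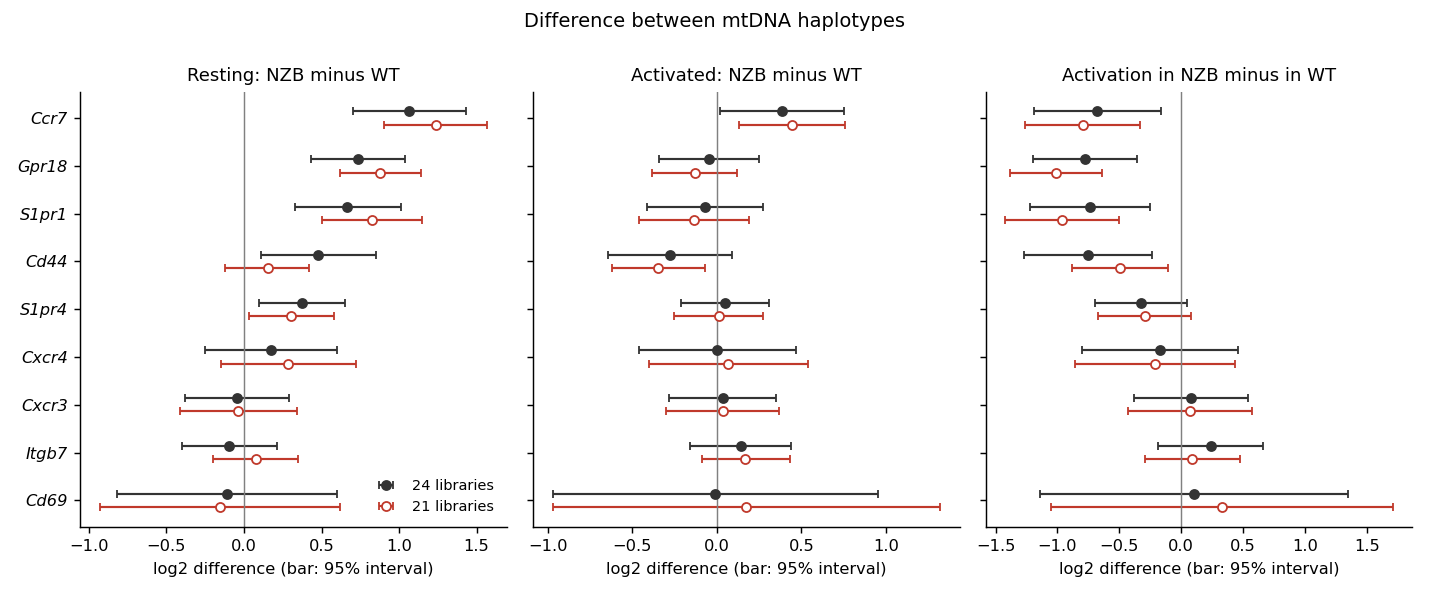
Log2 difference between mtDNA NZB and mtDNA B6 cells at rest (left) and after activation (middle), and the difference of their responses to activation (right), with 95% intervals, over 24 libraries (black) and 21 libraries (open red). Ccr7, Gpr18 and S1pr1 lie to the right of 0 at rest and to the left for the response, and the Cd44 difference at rest is 0.48 over 24 and 0.15 over 21 libraries.

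The other genes of lymphocyte trafficking were described from 8 lists with 97 genes, of which 63 were tested. With activation 8 rose and 16 fell in mtDNA B6, where 17.7% of all tested genes were called, and 6 rose and 15 fell in mtDNA NZB, where 23.4% were called. The median log2 change was -0.22 and -0.32, against -0.03 and -0.06 over all tested genes. Of 8 tested chemokine receptors 3 rose and 4 fell in each haplotype. Ccr6, found on Th17 and B cells, rose by log2 1.93 ± 0.39 in mtDNA B6 and 1.63 ± 0.44 in mtDNA NZB (adjusted p = 0.000262 and 0.00289). Ccrl2, a chemerin-binding receptor also found on myeloid cells, fell by 3.21 ± 0.30 and 2.79 ± 0.33 on the log2 scale (adjusted p = 3.64e-09 and 1.2e-07), beside the fall of the myeloid markers given above, whose part was not tested.

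None of 6 tested genes of S1P metabolism and transport rose and 2 fell in each haplotype. Sphk1, a kinase that makes S1P, had a median of 28.8 CPM in resting and 0.912 CPM in activated mtDNA B6 cells and of 8.54 and 0.545 CPM in mtDNA NZB cells (log2 -5.09 ± 0.59 and -3.70 ± 0.69, adjusted p = 1.52e-07 and 7.13e-05). Sphk1 was also the 1 gene of the lists called between the haplotypes at rest (log2 -1.76 ± 0.48 in mtDNA NZB, adjusted p = 0.046). The call was not made with DESeq2, DESeq2 size factors, the second count table, the library set as a term or only the resting groups fitted. The part of other cells in it was not tested. Mfsd2b, the S1P exporter of red cells and platelets, fell (log2 -2.69 ± 0.49 and -1.98 ± 0.55). The erythroid markers fell too, while 2 of 3 tested platelet markers were called higher in each haplotype over 24 libraries. The part of these cells in the Mfsd2b change was not tested. Of 5 tested lipid and orphan receptors, 1 rose and 2 fell in mtDNA B6 and 1 fell in mtDNA NZB. Gpr183, the oxysterol receptor that positions B and T cells, was at -0.24 ± 0.31 and -0.85 ± 0.33 and was not called.

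Among the genes that pass on or end the receptor signal, 1 of 16 rose and 2 fell in mtDNA B6 and 3 fell in mtDNA NZB. Rgs2 and Rgs1, both regulators that shorten G protein signals, fell, Rgs2 from a median of 96.6 to 1.72 CPM in mtDNA B6 and from 94.2 to 3.70 CPM in mtDNA NZB (log2 -5.33 ± 0.31 and -4.64 ± 0.31). Rgs1, which dampens Cxcr4 and S1P receptor responses, fell by 2.65 ± 0.33 and 2.26 ± 0.33 on the log2 scale. Gnai2, the main inhibitory G protein of these receptors, was at 0.15 ± 0.10 and 0.16 ± 0.10, and Grk2, which desensitises S1pr1, at 0.35 ± 0.13 and 0.31 ± 0.13, neither of them called.

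Of 9 tested integrins and selectins, 1 rose and 2 fell in mtDNA B6, and 1 rose and 1 fell in mtDNA NZB. Itga4, the partner chain of Itgb7, fell from a median of 67.1 to 22.7 CPM in mtDNA B6 and from 69.6 to 23.7 CPM in mtDNA NZB (log2 -1.47 ± 0.18 and -1.45 ± 0.19), while Itgb7 itself was not called. Itgal, the LFA-1 chain, was at -0.03 ± 0.11 and 0.07 ± 0.12, and Itgae, which pairs with Itgb7 in cells of the gut lining, at 0.34 ± 0.46 and -0.17 ± 0.48. Among 10 tested adhesion partners and selectin ligands 1 rose in each haplotype. It was Fut7, the fucosyltransferase that completes selectin ligands (log2 1.72 ± 0.22 and 2.50 ± 0.25, adjusted p = 8.42e-07 and 1.42e-08), while Selplg, which carries them, was at 0.60 ± 0.10 and 0.73 ± 0.10, under the fold cut-off.

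Of 7 tested regulators of these genes, 1 rose and 3 fell in mtDNA B6, and 1 rose and 2 fell in mtDNA NZB. Klf2 fell from a median of 2424 to 378.7 CPM in mtDNA B6 and from 2730 to 422.0 CPM in mtDNA NZB (log2 -2.72 ± 0.26 and -2.54 ± 0.26). Klf2 and S1pr1 were both lower after activation in each haplotype, S1pr1 by log2 -0.77 ± 0.17 in mtDNA B6 and -1.50 ± 0.18 in mtDNA NZB. Between the haplotypes at rest Klf2 differed by 0.045 ± 0.244 and S1pr1 by 0.67 ± 0.17 (mtDNA NZB minus mtDNA B6). A link between the 2 genes was not tested. Foxo1, which acts above Klf2 in T cells, had 37 counts in all libraries together and was not tested. Of 2 tested ligand genes 1 fell in mtDNA B6 and both fell in mtDNA NZB, and Ccl19, Ccl21a and Cxcl12 had 1 count each in all libraries. Between the haplotypes at rest no gene of the lists was called higher and 1, Sphk1, lower, and none was called after activation or for the interaction. Over 21 libraries, where 65 of the genes were tested, Mfsd2b (log2 -1.72 ± 0.47) was called at rest beside Sphk1 (-2.52 ± 0.45), and Bach2 for the interaction (-0.96 ± 0.24, adjusted p = 0.0498).

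**Figure D5:**
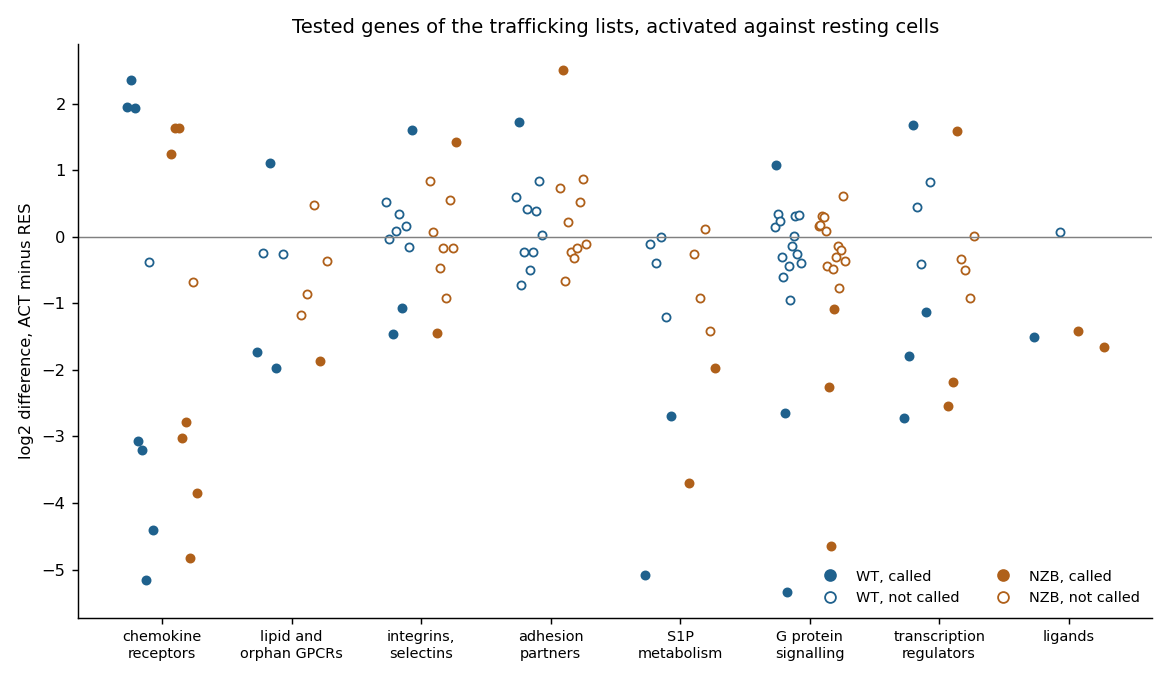
Log2 difference between activated and resting cells for every tested gene of the 8 trafficking lists, in mtDNA B6 (blue) and mtDNA NZB (brown). Filled circles are called genes. The lowest points are Rgs2 (-5.33 and -4.64), Sphk1 (-5.09 in mtDNA B6) and the chemokine receptor Cxcr2 (-5.16 ± 0.77 and -4.83 ± 0.88), and the highest is Fut7 (2.50 in mtDNA NZB). Cxcr2 had activated medians of 0.23 and 0.07 CPM. It fell beside the neutrophil markers, whose part was not tested.

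The promoters of 6 of the 9 members were in the RefSeq promoter table (build GRCm38.p6, 250 bases before to 50 after the start of the gene). Both strands were searched for CCCACCC, a core that KLF factors bind, GTAAACA, a FOXO core, and TGANTCA, the AP-1 element. The KLF core was found in 1 member, Itgb7, and in 17.5% of all 32851 promoters of that length, and the FOXO and AP-1 letters (3.6% and 7.8% of all) were found in none of the 6. The stretches with the KLF core in Itgb7 are shown, with that of Klf2, a list gene that is not a member and was searched in addition. Both genes carry the core within 20 bases of the start, on opposite strands. Whether it bears on their levels was not tested. Capitals mark the core, read along the gene as CCCACCC or, on the other strand, as GGGTGGG. The first stretch is at chr15:102231936-102231965 (minus strand), the second at chr15:102232099-102232128 (minus strand) and the third at chr8:72319032-72319061 (plus strand).
Itgb7, 18 bases before the start: tccaagagtcccCCCACCCcagggtgtgtc
Itgb7, 182 bases before the start: tgtgggggcagGGGTGGGggcaccgccact
Klf2, 19 bases before the start: ctataaggcctGGGTGGGccgggccacagc
A match of letters is a description of the window and not a bound site.

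Over the 23 libraries of at least 500000 UMI counts, the members whose log2 CPM ran most alike were Cxcr4 and Cd69 (Pearson r = 0.94), Cxcr4 and S1pr1 (0.87) and Ccr7 and S1pr1 (0.83), and Cxcr4 ran opposite to Cxcr3 (-0.86) and S1pr4 (-0.85). Within the groups, after removal of each group's mean, these were 0.55, 0.40, 0.45, 0.25 and 0.00. Itgb7 and Cd44 had -0.53 over the libraries and -0.76 within groups. The libraries share their state and depth, so the values describe these libraries only. Among 8048 genes the pattern most like Cxcr4 was that of Tnfaip3 (r = 0.98), which restrains NF-kappaB signalling and had medians of 551.7 CPM in resting and 32.7 CPM in activated mtDNA B6 cells, then Ccnl1 (0.98). Cd69 was most like Pik3r1 (0.95) and Tob1 (0.94), a gene of antiproliferative function. Cxcr3 was most like Tbx21 (0.96), the gene of the Th1 factor T-bet, and H13 (0.95). S1pr1 was most like Pnrc1 (0.96) and Ythdc1 (0.95), S1pr4 like Npc2 (0.94) and Pim2 (0.94), and Ccr7 like Kbtbd2 (0.91) and Mepce (0.91). Itgb7 was most like Flt3l (0.88) and Dctn6 (0.86), and Cd44 like Selenon (0.89) and Sat1 (0.89). Gpr18 had the weakest likeness, with Bach2 (0.78) and Akna (0.71). Within the groups, the r of these genes with their member ran from 0.47 (Cxcr4 and Ccnl1) to 0.89 (Itgb7 and Dctn6). It was 0.60 for Cxcr4 and Tnfaip3, 0.62 and 0.56 for Cd69 with Pik3r1 and Tob1, and 0.77 for Cxcr3 and Tbx21. Bach2, a factor that keeps lymphocytes in a less differentiated state, had medians of 48.6, 73.9, 72.7 and 60.1 CPM in resting and activated mtDNA B6 and resting and activated mtDNA NZB cells, against 74.5, 105.2, 132.9 and 105.7 CPM for Gpr18.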

How the data were processed

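Per the labels and the methods of the study, RNA of the cells was made into bulk MARS-seq libraries, which read the 3′ end of polyadenylated RNA. The authors trimmed reads with cutadapt, mapped them with STAR to regions of 1000 bases at 3′ ends of GRCm39 (Ensembl 106), counted them with HTSeq, removed UMI duplicates, corrected for UMI saturation and deposited whole counts. A second, larger deposited count table served as an alternative. Input RNA and isolation kit differ between the labels and the methods. The tables also held 1 column that matched no sample and was not used.

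Counts were fitted with edgeR 4.0.16 (R 4.3.3; TMM, filterByExpr, quasi-likelihood test, 4 groups together, Benjamini-Hochberg over 10566 genes). The SE of a log2 change is its size divided by the root of F, and 95% intervals are 1.96 SE. DESeq2 1.42.0 was an alternative. The fit was tested on simulated data. No pair of libraries within a group agreed within sampling noise (lowest chi-square 2.97 times its degrees of freedom), and none was merged.

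The members and the lists were chosen with earlier results of these data known. Named were all members, a set of list genes (Itga4, Itgae, Itgal, Klf2, Foxo1, Rgs1, Gnai2, Grk2, Gpr183, Selplg), the 3 largest rises and falls among called list genes with a mean of at least 10 CPM, and per member the 2 most alike genes; Mfsd2b, Cxcr2, Bach2, Ubac2 and marker genes were added after their values were seen. Some genes that the rule selects are not reported here.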

Additional observations from a re-analysis of the deposited data

Results flagged for a closer look

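In the 36 groups of 6 libraries tested (9 members in 4 groups), 4 held a library far from the other 5 by Dixon's criterion, and chance flags about 1 in 20 groups. Ccr7 was at 966.3 CPM in resting mtDNA B6 replicate 6, with the next library at 664.2 CPM, and at 325.1 CPM in activated mtDNA B6 replicate 1, with the next at 440.8 CPM. Cxcr4 was at 44.6 CPM in activated mtDNA B6 replicate 3, where the next library was at 30.3 CPM. Cd44 was at 24.2 CPM (61 counts) in activated mtDNA B6 replicate 6, where the next was at 29.7 CPM.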

How the results depend on the processing

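The log2 changes and calls of the members were taken 1665 times under other settings. The setting without the fold cut-off reuses the main fit. The setting without the library of the lowest depth repeats that without resting mtDNA NZB replicate 2. The call was the same in 1640 of them, was lost in 16 and gained in 9, and no called value changed its sign (72 uncalled values near 0 did). Of the 1640, 324 were for activated cells between the haplotypes and 331 for the interaction, where the main fit called no member. The lost calls were 10 of Cd44 in mtDNA NZB and 6 of Ccr7 at rest. Without the fold cut-off 7 members were called with activation in mtDNA B6 and 3 at rest, and of the trafficking lists 38 genes in mtDNA B6, 39 in mtDNA NZB and 2 at rest. At rest the lists had 0 calls with DESeq2 size factors, DESeq2, the second count table, the library set as a term or only the resting groups fitted, and 2 calls over 21 libraries. At rest the members had 0 calls with the library set as a term or with only the resting groups fitted. For the interaction 2 members and 1 list gene were called over 21 libraries. Leaving out 1 library at a time gave 3 member calls in mtDNA B6 throughout, 5 to 6 in mtDNA NZB and 0 to 1 at rest, 24 to 28, 20 to 27 and 0 to 3 list calls, and 0 after activation and for the interaction. Cd44 lost its call in mtDNA NZB without resting replicate 2 (-0.98) or 6 (-0.75) or activated replicate 2 (-0.97), with the second count table (-0.94) and with the library set as a term (-0.87). The cause was not tested.

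Same-numbered libraries were taken as paired where the deviations from their group means correlated above 0.1 in every pair, and neither numbering met this. Of the pairs by the number in the description 3 of 5 in mtDNA B6 and 0 of 4 in mtDNA NZB were above it, and of those by the title 4 of 6 and 0 of 6 (-0.185 to 0.253). With a replicate block by the number in the description, Cd44 was at -0.87 ± 0.22 and not called, and over 21 libraries the interactions of S1pr1 and Gpr18 were -0.58 ± 0.26 and -0.97 ± 0.19 and not called. Over 24 libraries with this block these interactions were -0.41 ± 0.27 and -0.67 ± 0.27, also not called. With a block by the number in the title the call of each member was as without it, although S1pr1 at rest no longer passed by adjusted p alone. In 4 of 10 mtDNA B6 and 0 of 8 mtDNA NZB libraries the most alike library of the other state carried the same number. The blocks over 21 libraries and the library set over 21 libraries were chosen after seeing the data. Values of resting mtDNA NZB replicate 2 rest on 4 to 38 counts, and counts of Cd69 after activation on 3 to 33.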
